A study of Rattus norvegicus with 60 samples.

Results

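The livers described here came from vehicle-treated male rats that were killed after 14 days (Control 14d, 5 rats) or after 7 days (Control 7d, 5 rats). They were chosen by their labels for treatment and day alone and make up 10 of the 60 libraries of a study of perfluorooctanoic acid (PFOA), a perfluorinated surfactant that activates the nuclear receptor PPARα. All rats were singly housed male Sprague-Dawley animals, an outbred laboratory stock, and both vehicle groups received water by daily oral gavage. The sample labels give an age of 8 to 9 weeks for Control 14d and of 7 to 8 weeks for Control 7d, while the design text describes the rats as 5 to 6 weeks old without saying at which point. The other rats that enter the comparisons below were gavaged with PFOA, at a daily dose of 1, 5 or 15 mg/kg, until day 14 or day 7, with 5 rats in each dose and day, and 5 more vehicle rats were killed on day 28. The comparison asks how the untreated liver of a young rat changed over 1 week, which is also the baseline against which the day 14 and day 7 PFOA groups are read. Age, days of gavage and day of killing differ together between the 2 vehicle groups, so their parts cannot be told apart.

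Rats of this age pass from puberty to young adulthood. Their livers still grow with the body, hepatocytes divide less and less and become polyploid, and blood formation in the liver has largely ended. In male rats the pulsed secretion of growth hormone sets a male pattern of liver genes, among them the steroid hydroxylase Cyp2c11 and the α2u globulins, lipocalins that the liver secretes into blood and that carry pheromones in urine.

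Polyadenylated RNA of each liver was sequenced as 1 stranded library per rat, so each value below is that of 1 animal. Total counts per library ran from 7965497 to 17682937 in Control 14d and from 8773160 to 18609276 in Control 7d. Levels are given as CPM, counts scaled to library size after TMM normalisation, and 12167 genes passed the filter on low counts. Libraries of the same group differed along a strong common axis that held 58.9% of the within-group variance over all 60 libraries. All 76 ribosomal protein genes went down along this axis, and a score per library in SD units was built from 500 genes on it. The score averaged -0.61 ± 0.79 in Control 14d and -0.07 ± 1.14 in Control 7d (SD, n = 5 each). That difference of -0.53 was not past an exact two-sided permutation test (p = 0.365, smallest possible p 0.00794). Mitochondrially encoded genes took 3.42 ± 0.281% of reads in Control 14d and 3.22 ± 1.77% in Control 7d (exact permutation p = 0.857). The score was a covariate in the edgeR quasi-likelihood fit over all 60 libraries, and values without it stand beside the main results. Log2 changes are day 14 minus day 7, with a standard error (SE), and calls were made where the adjusted p was below 0.05. Libraries are numbered 1 to 5 within a group only to name them.

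Of the 12167 genes, 3 were called between Control 14d and Control 7d, which is 0.0247% of those tested. Rreb1 and Nuak1 rose (0.0164% of genes were called higher) and Alox15 fell (0.00822% lower). Alox15 was the only one of the 3 whose groups did not overlap, and Rreb1 and Nuak1 were named after their values were seen, since the count was so small. Without the library score no gene was called, and 508 genes (4.18%) had an unadjusted p under 0.05, against 1139 (9.36%) with it.

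Alox15 (ENSRNOG00000019183) encodes arachidonate 15-lipoxygenase, which adds oxygen to polyunsaturated fatty acids. Its level was 0.486, 0.377, 0.384, 0.285 and 0.619 CPM in the 5 Control 14d livers, against 19.4, 3.75, 1.26, 3.85 and 2.51 CPM in the 5 Control 7d livers. Every day 14 value lay below every day 7 value, and library 1 of Control 7d stood far above its group. The same library was the highest of Control 7d for the erythroid genes Ahsp (5.61 CPM), Alas2 (29.1 CPM) and Hba-a3 (26.3 CPM), whose part in the result was not tested. The fitted log2 change of Alox15 was -3.75 ± 0.75 (SE; 95% interval -5.26 to -2.23; edgeR adjusted p = 0.0348). It was -3.78 without the score (adjusted p = 0.0579) and -2.63 without library 1 of Control 7d (adjusted p = 0.224). The day 28 vehicle livers stayed at the low level, with 0.532, 0.114, 0.471, 0.146 and 0.866 CPM. The counts behind the values were small, 22 reads in all in Control 14d and 305 in Control 7d. In treated livers the mean level at 1 mg/kg was 0.687 CPM on day 14 and 3.01 CPM on day 7, a fitted log2 change of -2.15 ± 0.69 (edgeR adjusted p = 0.0420). At 5 mg/kg the means were 0.559 and 1.88 CPM on days 14 and 7 (log2 change -1.72 ± 0.75, edgeR adjusted p = 0.265). At 15 mg/kg they were 0.707 CPM on day 14 and 0.247 CPM on day 7 (log2 change 1.47 ± 0.93), so that the high day 7 level was not seen at the top dose. Ahsp had log2 changes of -1.78, -1.51 and 0.63 at 1, 5 and 15 mg/kg. The vehicle change of Alox15 minus its mean treated change was -2.95 ± 0.91 on the log2 scale, which was not past the edgeR test (adjusted p = 0.134).

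Rreb1 (ENSRNOG00000015701) encodes a zinc finger transcription factor that binds Ras-responsive elements. Its level was 16.5, 36.8, 10.6, 6.98 and 13.4 CPM in Control 14d, against 10.5, 23.2, 5.68, 5.83 and 29.3 CPM in Control 7d. These ranges overlapped almost fully, and the call came from the fit that takes the library score into account (log2 change 0.74 ± 0.14, edgeR adjusted p = 0.0343). Without the score the log2 change was 0.17 (adjusted p = 0.951). Nuak1 (ENSRNOG00000008061), a kinase of the AMPK-related family, had 5.28, 13.2, 2.94, 2.56 and 6.31 CPM in Control 14d and 3.52, 3.75, 1.64, 2.23 and 7.52 CPM in Control 7d. Its ranges overlapped as well, with a log2 change of 1.06 ± 0.22 with the score (edgeR adjusted p = 0.0348) and 0.68 without it (adjusted p = 0.942). Within the 12 groups, the correlation with the score was 0.97 for Rreb1, 0.90 for Nuak1 and 0.11 for Alox15, over 60 libraries that also enter the score, so that the Rreb1 and Nuak1 calls rest on the covariate, while the Alox15 log2 change was close to its value without it.

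**Figure D1:**
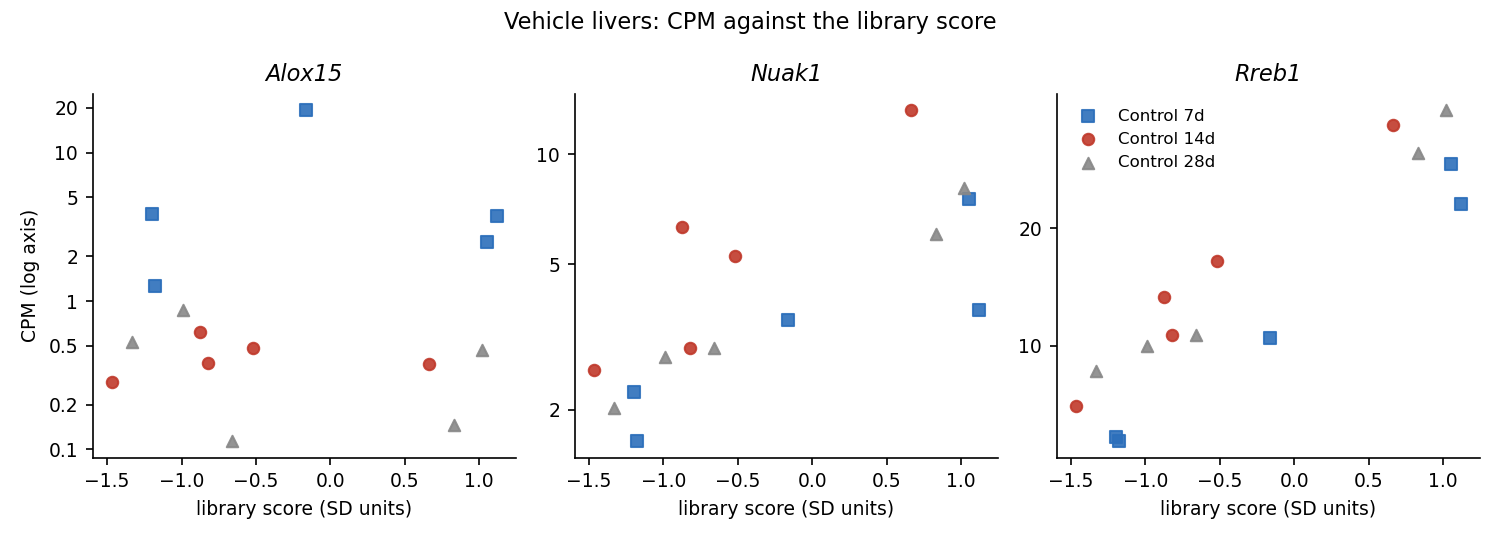
CPM of Alox15, Nuak1 and Rreb1 on a log axis against the library score (SD units) in the vehicle livers of days 7, 14 and 28, 1 point per library. Nuak1 and Rreb1 tend to climb with the score, while Alox15 separates day 7 from the other days at any score.

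When each of the 10 libraries was left out in turn, Alox15 was still called in 3 of the 10 fits, with edgeR adjusted p between 0.0116 and 0.224. Rreb1 was called in 4 of 10 (adjusted p between 0.00683 and 0.168) and Nuak1 in 4 of 10 (adjusted p between 0.00902 and 0.215). None of the 3 genes changed direction: Alox15 ranged from -4.03 to -2.63 on the log2 scale, Rreb1 from 0.65 to 0.86 and Nuak1 from 0.88 to 1.25.

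The fit bounded most other genes. The median half-width of the 95% interval of a log2 change was 0.36, against 0.67 without the score. For 9872 genes (81.1%) the whole interval lay inside a 2-fold change in either direction, and for 6664 genes (54.8%) it lay inside a 1.5-fold change. An estimate of 2-fold or more was reached by 235 genes (1.93%), of which 97 averaged at least 1 CPM. The median log2 change of all genes was 0.00 with the score and -0.04 without it.

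Without regard to any fit, all 5 Control 14d values lay above all 5 Control 7d values for 38 genes (0.312%) and below them for 53 genes (0.436%), 91 in all (0.748%). Nothing is read from that count. The genes described next did not pass the adjustment over all genes, and they were chosen after their values were seen, except Lrat and Cyp17a1, which led a gene list. Adgrg2, an adhesion G protein-coupled receptor, had 0.121, 0.471, 0.384, 0.712 and 0.124 CPM in Control 14d and 2.86, 2.42, 0.884, 1.86 and 2.62 CPM in Control 7d. Its log2 change was -2.57 ± 0.60 (edgeR adjusted p = 0.0825), and the mean treated change was 0.05 ± 0.24. Cyp17a1, a steroid 17-hydroxylase, had 11.1, 21.3, 12.03, 7.26 and 15.7 CPM in Control 14d and 40.1, 36.6, 23.6, 23.6 and 52.3 CPM in Control 7d (log2 change -1.13 ± 0.31, edgeR adjusted p = 0.148). On day 28 it spread over 4.32 to 33.1 CPM, across both ranges. Shmt1, a serine hydroxymethyltransferase of one-carbon metabolism, was tight within groups, at 79.7 to 107 CPM in Control 14d and 115 to 140 CPM in Control 7d (log2 change -0.39 ± 0.10, edgeR adjusted p = 0.113). In treated livers averaged over doses Shmt1 fell by 0.19 ± 0.06 over the same days (edgeR adjusted p = 0.0402). By dose its log2 change was 0.076, -0.37 and -0.28 at 1, 5 and 15 mg/kg, and only that at 5 mg/kg was called (edgeR adjusted p = 0.0436). The vehicle change of Shmt1 differed from that at 1 mg/kg (edgeR adjusted p = 0.0468). It was not past the edgeR test against 5 mg/kg, 15 mg/kg or the mean treated change (adjusted p = 0.977, 0.952 and 0.426). Lrat makes retinyl esters and marks stellate cells. It had 69.0, 68.8, 58.0, 45.3 and 65.4 CPM in Control 14d and 44.7, 33.6, 19.3, 29.1 and 37.2 CPM in Control 7d (log2 change 0.93 ± 0.25, edgeR adjusted p = 0.148). The lowest day 14 value and the highest day 7 value of Lrat nearly met, and the day 28 livers were back at 19.4 to 51.6 CPM. At 1 mg/kg PFOA the change of Lrat over the same days was -0.76 ± 0.25, and the vehicle change differed from it (edgeR adjusted p = 0.00941). At 5 and 15 mg/kg the changes of Lrat were -0.12 and -0.15, and the vehicle change was not past the edgeR test against either of them or against the mean treated change (adjusted p = 0.249, 0.513 and 0.0584).

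**Figure D2:**
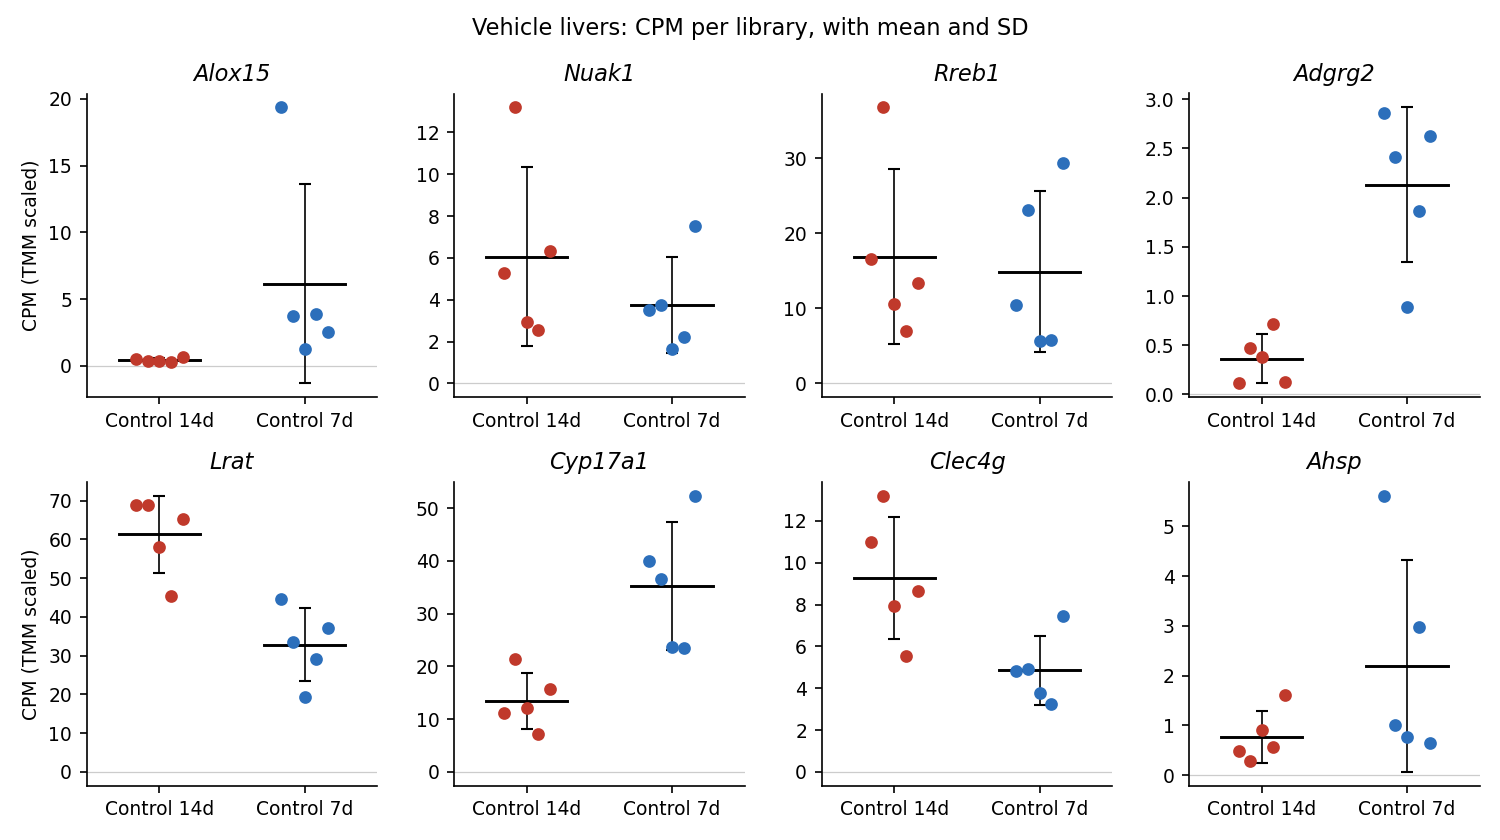
CPM of 8 genes in each Control 14d library and each Control 7d library, with the group mean (line) and SD (bar). The groups do not overlap for Alox15, Adgrg2, Lrat and Cyp17a1, and overlap for Nuak1, Rreb1, Clec4g and Ahsp.

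Of the 42 gene lists, none held a called member of the vehicle comparison. They cover 26 pathways, 15 cell types and 1 group of large proteins, with 599 distinct genes tested. They are described by counts of members with an unadjusted edgeR p under 0.05 (5.01% of all genes higher and 4.36% lower at day 14) and by their median. The lists farthest from the median of all genes were the erythroid genes (median -1.70 over 5 genes) and the cell cycle genes (-0.56 over 27) on the low side. On the high side they were the neutrophil markers (0.60 over 2 genes), the T and NK cell markers (0.45 over 12) and the sinusoidal endothelium markers (0.39 over 13). Genes of large proteins had 12 of 25 higher and none lower at an unadjusted p under 0.05. Their median was 0.33 with the score and -0.26 without it.

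**Figure D3:**
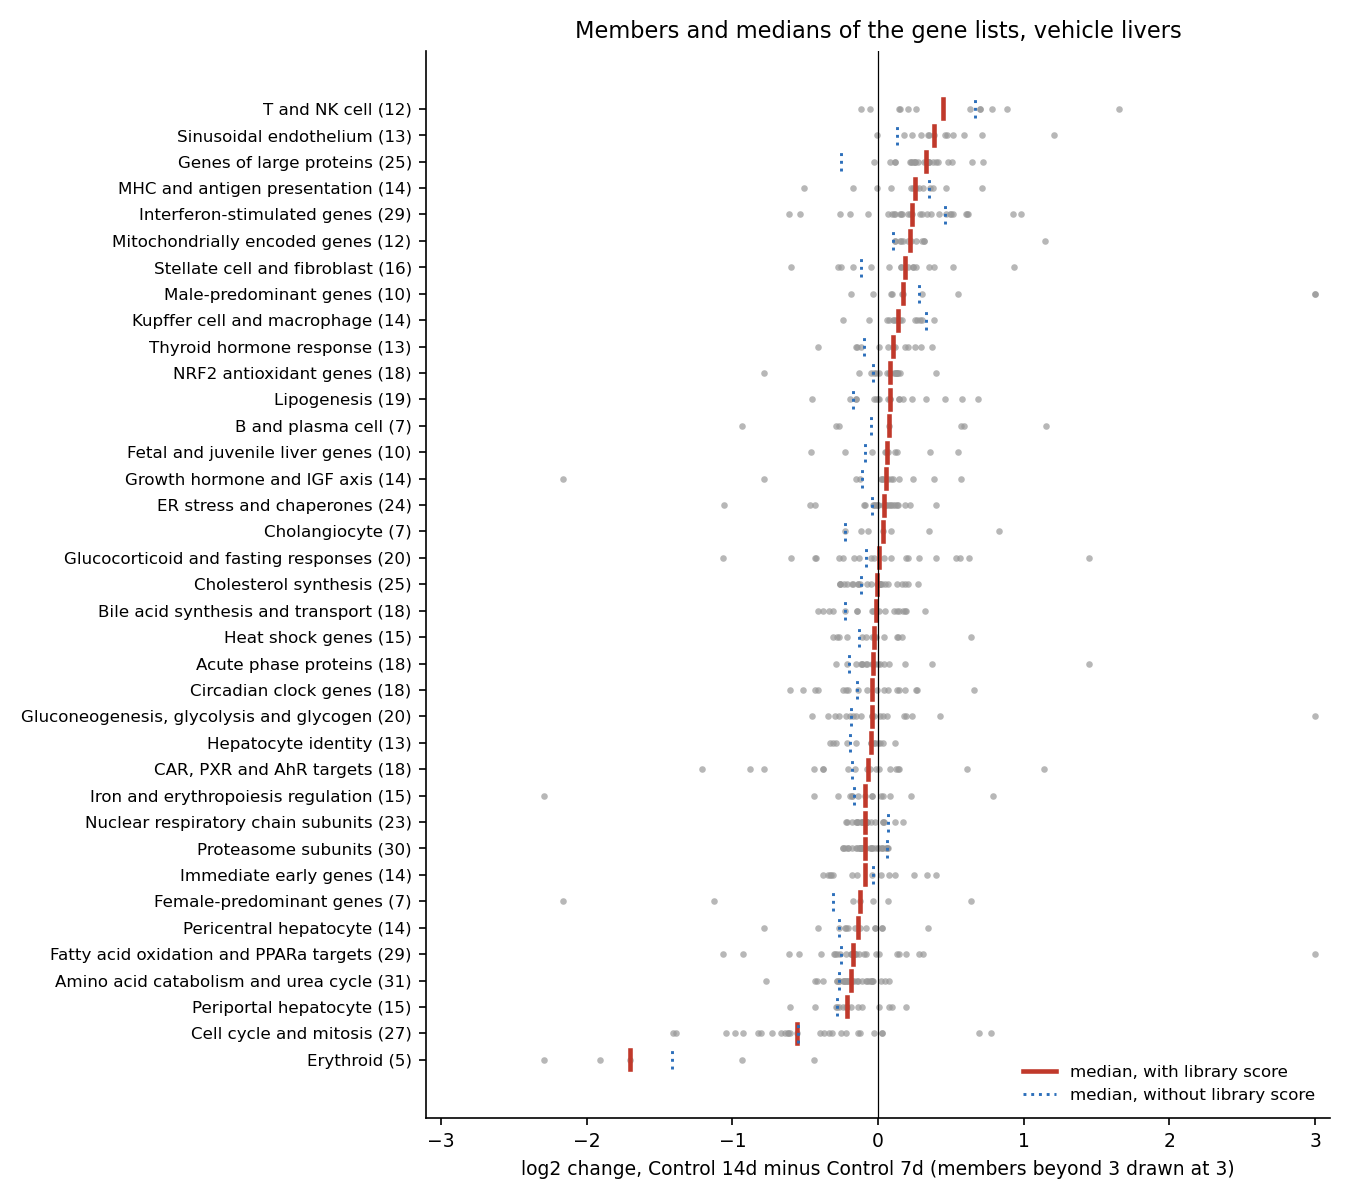
Log2 change of each tested member (grey points) and the median of each list of at least 5 tested genes, with the library score (solid) and without it (dotted), Control 14d minus Control 7d. The erythroid and cell cycle medians lie lowest with either fit.

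Most cell cycle genes had negative changes, none of them called. Of 27 members tested, 23 had a negative log2 change, 5 were lower and 1 was higher with an unadjusted p under 0.05, and the median was -0.56 with the score and -0.55 without it. Cdk1, the kinase that drives entry into mitosis, had 1.64, 0.377, 1.15, 1.57 and 1.24 CPM in Control 14d and 3.41, 1.92, 4.80, 2.36 and 1.399 CPM in Control 7d. In Control 14d 3 of the 5 values lay below the day 7 range, and its log2 change was -1.39 ± 0.48 (edgeR adjusted p = 0.298). Bub1, a kinase of the spindle checkpoint, had 2.06, 1.89, 2.18, 2.42 and 2.23 CPM in Control 14d and 3.63, 2.75, 3.79, 2.73 and 2.91 CPM in Control 7d. Its groups did not overlap (log2 change -0.64 ± 0.29, edgeR adjusted p = 0.480). The other members lower at an unadjusted p under 0.05 were the thymidine kinase Tk1 (-0.62 ± 0.22), the checkpoint kinase Bub1b (-1.41 ± 0.63) and Nusap1, which bundles spindle microtubules (-1.05 ± 0.49). Mki67, the marker of cycling cells, had 1.52, 1.79, 1.02, 0.997 and 0.866 CPM in Control 14d and 2.64, 2.58, 2.15, 0.620 and 3.56 CPM in Control 7d. Library 4 of Control 7d was the lowest of all 10, so that the groups overlapped (log2 change -0.56 ± 0.44, edgeR adjusted p = 0.726). Ccnd1, the G1 cyclin, went the other way at 0.69 ± 0.31 (edgeR adjusted p = 0.478). The levels were low, with 61 reads of Cdk1 in Control 14d and 135 in Control 7d. In whole liver, fewer cycling cells and less RNA per cell cannot be told apart, and the same holds for every cell type below.

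The treated rats cover the same days and share no library with the vehicle comparison, but both use the same fit, score and spread estimate. Days of PFOA also differ between the treated day 14 and day 7 groups, so these are no second measure of the untreated liver. Averaged over the 3 doses, 10 of the 27 cell cycle genes fell and none rose (background 2.75% lower), with a median of -0.60, against -0.56 in vehicle livers. Cdk1 fell by 1.25 ± 0.28 on the log2 scale in treated livers (edgeR adjusted p = 0.0101), Mki67 by 1.10 ± 0.26 (adjusted p = 0.0128) and Bub1 by 0.72 ± 0.17 (adjusted p = 0.0136). All calls in this paragraph come from the fit with the score. Without it, 9 of all 12167 genes were called over the 3 doses, 4 of them lower, and 13 were called lower at 5 mg/kg. The doses gave different counts, and differences between doses were not tested. At 5 mg/kg, 14 of 27 fell (background 1% lower) with a median of -1.54. At 15 mg/kg none was called and the median was -0.32. At 1 mg/kg 1, the transcription factor Foxm1, was called higher (background 5.1% higher) and the median was 0.06. Foxm1 is named because the count was 1, after its value was seen. Cdk1 averaged 5.66 ± 2.45 CPM in the 5 mg/kg day 7 livers, against 2.78 ± 1.35 CPM in Control 7d. No cell cycle gene differed between the vehicle and the treated change in the edgeR test, and for Cdk1 that difference was -0.14 ± 0.57.

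**Figure D4:**
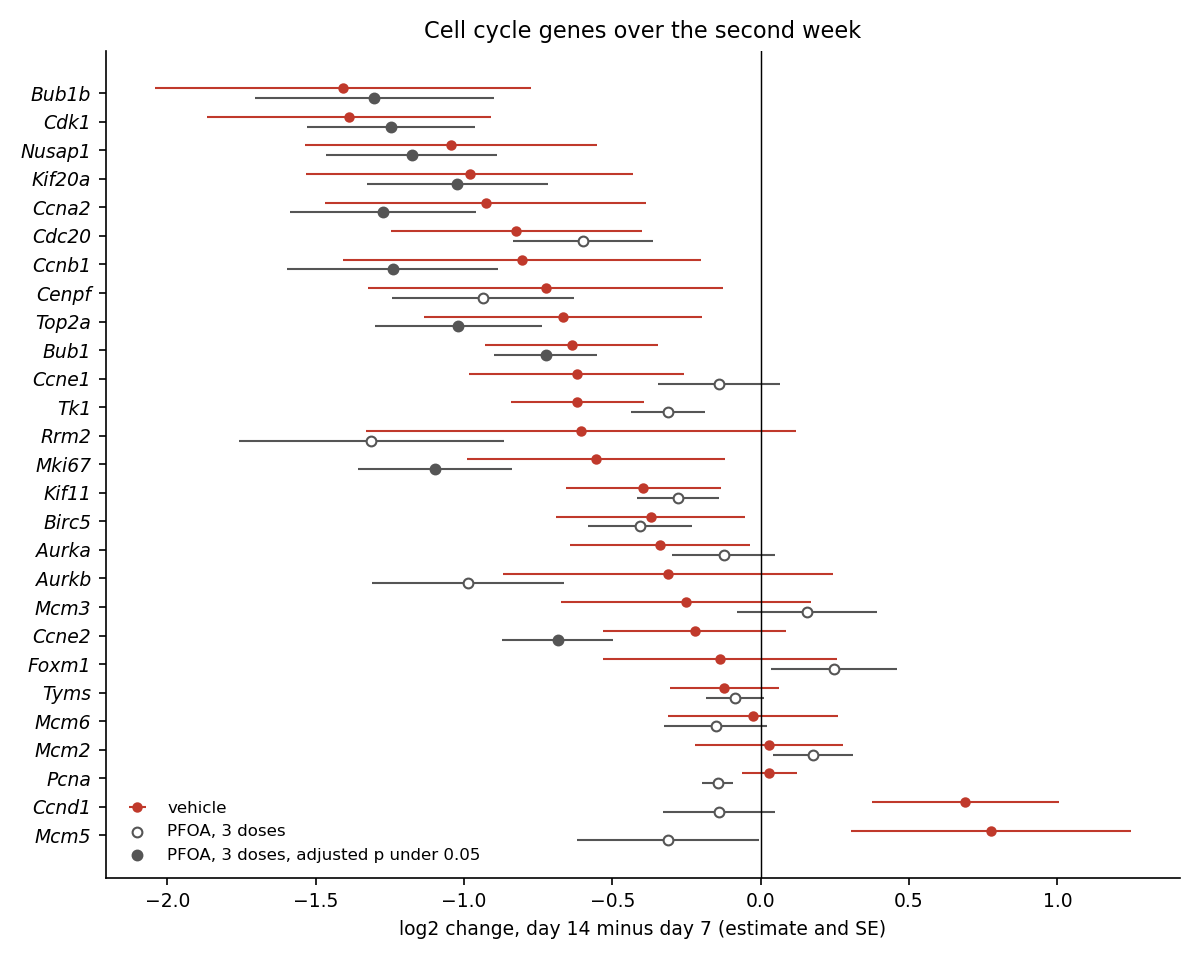
Log2 change, day 14 minus day 7, with its SE for the 27 cell cycle genes in vehicle livers (red, upper of each pair) and in PFOA livers averaged over 3 doses (grey, filled where the adjusted p was under 0.05). Of the 10 filled points all lie below 0, and the vehicle estimates of the same genes do too.

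Genes that act in mitosis commonly carry a CHR element (TTTGAA) and CCAAT boxes near their start. Through the CHR element they are repressed outside the cycle. Both motifs were searched on either strand in RefSeq promoter windows of the GRCr8 build, from 250 bases before to 50 bases after the start site. Of 21 cell cycle members matched by symbol, 9 held TTTGAA (42.9%), 14 held CCAAT (66.7%) and 7 held both (33.3%), against 18.1%, 37.7% and 7.25% of all 27455 promoters. Of the 8 matched members that fell in treated livers, 4 held both. They are shown as the genes called in treated livers that hold both motifs, with matches to either motif on either strand in capitals. In Mki67 a TTTGAA match and a CCAAT match overlap. A match describes the letters only and is no evidence of binding.
Cdk1 chr20:19265043-19265342 plus strand: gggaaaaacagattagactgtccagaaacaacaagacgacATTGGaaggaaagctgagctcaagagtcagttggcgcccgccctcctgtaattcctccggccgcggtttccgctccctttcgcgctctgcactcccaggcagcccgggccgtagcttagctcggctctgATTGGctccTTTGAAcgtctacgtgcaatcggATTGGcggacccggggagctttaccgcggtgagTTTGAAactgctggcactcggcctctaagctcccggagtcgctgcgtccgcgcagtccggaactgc
Mki67 chr1:199952544-199952843 minus strand: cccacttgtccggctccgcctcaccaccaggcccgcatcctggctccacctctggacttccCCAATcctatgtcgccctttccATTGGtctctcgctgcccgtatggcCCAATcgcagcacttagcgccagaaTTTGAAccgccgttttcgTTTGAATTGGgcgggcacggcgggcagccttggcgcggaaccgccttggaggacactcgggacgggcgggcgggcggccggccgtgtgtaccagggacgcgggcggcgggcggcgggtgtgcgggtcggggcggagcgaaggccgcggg
Nusap1 chr3:127057045-127057344 plus strand: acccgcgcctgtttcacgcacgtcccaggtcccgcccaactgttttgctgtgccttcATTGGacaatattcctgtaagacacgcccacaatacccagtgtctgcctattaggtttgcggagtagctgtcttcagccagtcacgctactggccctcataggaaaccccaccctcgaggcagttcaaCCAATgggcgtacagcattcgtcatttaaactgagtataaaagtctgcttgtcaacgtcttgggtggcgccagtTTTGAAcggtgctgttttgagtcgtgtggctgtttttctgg
Top2a chr10:84473044-84473343 minus strand: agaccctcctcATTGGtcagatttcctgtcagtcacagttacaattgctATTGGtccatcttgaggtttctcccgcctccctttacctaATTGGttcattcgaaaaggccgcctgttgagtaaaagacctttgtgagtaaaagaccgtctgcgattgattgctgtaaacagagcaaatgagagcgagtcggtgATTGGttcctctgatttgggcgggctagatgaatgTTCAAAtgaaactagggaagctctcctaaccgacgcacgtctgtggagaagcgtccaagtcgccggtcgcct
Top2a, which untangles DNA before division, had a log2 change of -0.67 ± 0.47 in vehicle livers and fell by 1.02 ± 0.28 in treated livers (edgeR adjusted p = 0.0289). In vehicle livers it stood at 1.15 to 2.61 CPM in Control 14d and at 1.61 to 4.95 CPM in Control 7d.

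Erythroid genes had the lowest median of any list. All 5 tested of 14 listed had a negative log2 change, 4 of them with an unadjusted p under 0.05. Ahsp, the chaperone of free α globin, had 0.486, 0.283, 0.896, 0.570 and 1.61 CPM in Control 14d and 5.61, 0.999, 0.758, 2.98 and 0.641 CPM in Control 7d. The values overlapped, and libraries 1 and 4 of Control 7d stood above all others (log2 change -1.91 ± 0.43, edgeR adjusted p = 0.0716). Without library 1 of Control 7d, the highest, the log2 change was -1.17. Alas2, the first enzyme of haem synthesis in red cells, had 2.79, 0.754, 3.84, 1.28 and 5.20 CPM in Control 14d and 29.1, 6.58, 4.42, 9.30 and 4.84 CPM in Control 7d (log2 change -2.29 ± 0.72, edgeR adjusted p = 0.234). Hbb, the β globin, spread over 55.8 to 853 CPM in Control 14d and 118 to 1793 CPM in Control 7d, with an order of libraries close to that of Ahsp. Slc4a1, the red cell anion exchanger, had a log2 change of -0.94 ± 0.34. Its libraries were ordered otherwise, with 9.13, 10.3, 3.16, 1.12 and 10.2 CPM in Control 7d, so that library 4 was lowest. Within groups its correlation with the library score was 0.78, against -0.63 for Ahsp and -0.79 for Hbb, over 60 libraries. The summed level of the list was 138 to 996 CPM in Control 14d and 270 to 2010 CPM in Control 7d (exact permutation p = 0.222, adjusted over 18 measures 0.514). Red cells left in the vessels and erythroid cells of the tissue share these markers, and their parts in the result were not tested.

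No summed marker level of another cell type passed the adjustment over 18 measures. Of 13 sinusoidal endothelium markers tested, 8 were higher with an unadjusted p under 0.05 and none was lower. The genes of large proteins, which mark no cell type, had 12 of 25 higher and none lower by the same count. The summed level of the sinusoidal endothelium markers was 437 ± 65.0 CPM in Control 14d and 333 ± 25.6 CPM in Control 7d (SD, n = 5 each). The exact permutation p of that sum was 0.0238, and 0.314 when adjusted over 18 measures. Clec4g, a lectin of sinusoidal endothelium, had 11.0, 13.2, 7.94, 5.56 and 8.66 CPM in Control 14d and 4.84, 4.91, 3.79, 3.22 and 7.46 CPM in Control 7d. Only library 4 of Control 14d and library 5 of Control 7d crossed (log2 change 1.21 ± 0.28, edgeR adjusted p = 0.0825). Fcgr2b, the inhibitory Fc receptor that clears immune complexes, had 120 to 230 CPM in Control 14d and 65.2 to 128 CPM in Control 7d (log2 change 0.47 ± 0.14, edgeR adjusted p = 0.202). Ptprb, the receptor phosphatase of vessels, had a log2 change of 0.71 ± 0.19 with the score and 0.29 without it, and the median of the list was 0.39 with and 0.13 without it. In treated livers averaged over doses none of the 13 was called and the median was -0.02, while at 1 mg/kg 2 of the 13 fell (background 2.79% lower), Fcgr2b by 0.48 ± 0.14 (edgeR adjusted p = 0.0313) and the hyaluronan receptor Lyve1 by 0.53 ± 0.12 (adjusted p = 0.0104). Among T and NK cell markers, 3 of 12 were higher and none lower with an unadjusted p under 0.05. Gzmk, a granule protease, had 1.09, 0.754, 2.94, 3.85 and 1.11 CPM in Control 14d and 0.220, 0.333, 0.884, 0.248 and 0.525 CPM in Control 7d (log2 change 1.65 ± 0.53, edgeR adjusted p = 0.237). The summed T and NK level was 43.0 ± 15.0 CPM in Control 14d and 27.4 ± 5.69 CPM in Control 7d (exact permutation p = 0.0476, adjusted over 18 measures 0.314). Kupffer cell markers summed to 727 to 1411 CPM in Control 14d and 517 to 1020 CPM in Control 7d (exact permutation p = 0.151), and their scavenger receptor Cd163 had a log2 change of 0.11 ± 0.26. Muscle markers stayed near the floor, with summed levels of 0.283 to 1.85 CPM in Control 14d and 0.233 to 1.36 CPM in Control 7d. Pancreas markers summed to 26.5 to 125 CPM in Control 14d and 15.4 to 149 CPM in Control 7d. Among interferon-stimulated genes 24 of 29 were positive, with a median of 0.24 with the score and 0.46 without it, and 1 was higher and 1 lower at an unadjusted p under 0.05. Stellate cell and fibroblast markers summed to 817 ± 72.5 CPM in Control 14d and 881 ± 85.9 CPM in Control 7d (exact permutation p = 0.246).

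Single hepatocyte markers were narrowly bounded in the fit with the score. All 13 tested markers of hepatocytes had an interval inside a 2-fold change, with 1 lower and none higher at an unadjusted p under 0.05. Of the 13, 10 were negative, and the median was -0.05 with the score and -0.19 without it. Their summed level, with no term for the score, was 168930 ± 26568 CPM in Control 14d and 215724 ± 40064 CPM in Control 7d (exact permutation p = 0.0714, adjusted over 18 measures 0.314). Albumin (Alb) averaged 107031 ± 22061 CPM in Control 14d and 145786 ± 37215 CPM in Control 7d, with a log2 change of -0.29 ± 0.16 (edgeR adjusted p = 0.580). Igf1, the growth hormone target that mediates body growth, averaged 564 ± 92.7 CPM in Control 14d and 558 ± 42.4 CPM in Control 7d, with a 95% interval of -0.29 to 0.33 for its log2 change. Afp, the fetal counterpart of albumin, had a log2 change of 0.13 ± 0.21 and Col1a1, the fibrillar collagen, one of -0.60 ± 0.52.

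Of 10 male-predominant entries tested (9 symbols), 3 were higher and none lower with an unadjusted p under 0.05. The median was 0.17 with the score and 0.28 without it. The 3 were Cyp2c11 and both entries of Mup4, which was named after its values were seen. For Mup4, 1 entry had 104 reads in Control 14d and 2 in Control 7d, and the other had 511 and 22. Both ranged from 0 CPM upward in Control 14d, up to 5.63 and 21.3 CPM, so that the groups overlapped. Cyp2c11 had 3364, 3333, 2741, 2743 and 2093 CPM in Control 14d and 1999, 1851, 1206, 3114 and 1690 CPM in Control 7d. Apart from library 4 of Control 7d, every day 7 value was below every day 14 value (log2 change 0.55 ± 0.19, edgeR adjusted p = 0.322). At 1 mg/kg the change was -0.51 ± 0.19, and the vehicle change differed from it (edgeR adjusted p = 0.0247). At 5 and 15 mg/kg the changes of Cyp2c11 were 0.0067 and 0.12, and the vehicle change was not past the edgeR test against either of them or against the mean treated change (adjusted p = 0.437, 0.860 and 0.160). The day 28 vehicle livers had 1935 to 2456 CPM. The 9 tested genes described as α2u globulins or urinary proteins, a family grouped after its values were seen and so given without a test, summed to 17649 to 51564 CPM in Control 14d and 9864 to 31131 CPM in Control 7d. The means were 35569 ± 12481 CPM in Control 14d and 18516 ± 9498 CPM in Control 7d (SD, n = 5 each). Vehicle livers of day 28 averaged 29752 ± 16290 CPM. LOC259244, described as α2u globulin PGCL3, had 4324, 2026, 5096, 8505 and 4380 CPM in Control 14d and 1589, 1302, 1880, 2509 and 821 CPM in Control 7d, with overlap only at library 2 of Control 14d (log2 change 1.14 ± 0.35, edgeR adjusted p = 0.202). LOC298111 had a log2 change of 0.91 ± 0.25, AABR07048474.1, described as Mup5, one of 0.81 ± 0.23, and Rup2, urinary protein 2, one of 0.33 ± 0.17. Within groups these 4 genes ran against the library score, with correlations of -0.78 to -0.91 over 60 libraries. The members are near copies of each other, so reads may be split among them. The sum is in CPM with no term for the score, whose part in it was not tested. In PFOA livers the sum averaged 17091 CPM on day 14 and 20071 CPM on day 7 at 1 mg/kg, 24178 CPM on day 14 and 17467 CPM on day 7 at 5 mg/kg, and 7370 CPM on day 14 and 7231 CPM on day 7 at 15 mg/kg.

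**Figure D5:**
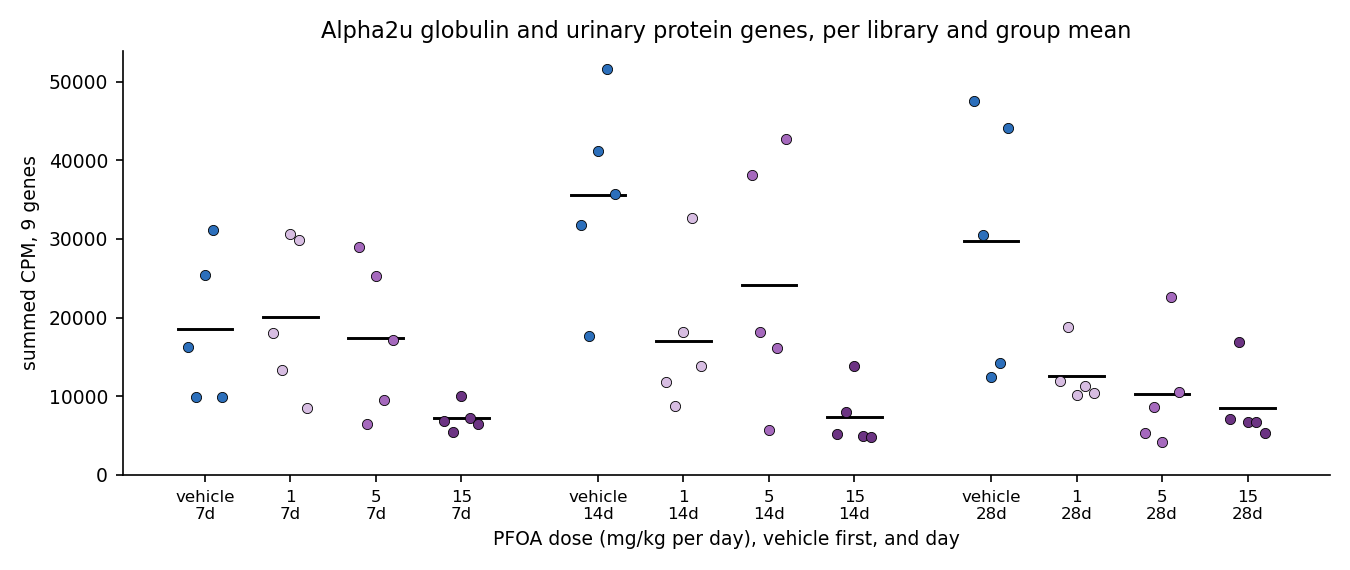
Summed CPM of 9 α2u globulin and urinary protein genes in each library, by day (7, 14, 28) and, within a day, vehicle then PFOA 1, 5 and 15 mg/kg per day, with the group mean as a line. Vehicle livers average 18516 CPM on day 7, 35569 on day 14 and 29752 on day 28, with wide overlap, and the 15 mg/kg group means lie between 7231 and 8573.

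Metabolic lists held no called gene. For cholesterol synthesis, the pathway from acetyl-CoA to sterols, 24 of 25 genes had an interval inside a 2-fold change, none had an unadjusted p under 0.05, and the median was -0.01. In treated livers averaged over doses 9 of the 25 fell over the same days (background 2.75% lower). By dose, 13 of the 25 fell at 1 mg/kg (background 2.79% lower) and none at 5 or 15 mg/kg. In the fit without the score, 4 of all 12167 genes were called lower over the 3 doses and 11 at 1 mg/kg. All 30 proteasome subunits had an interval inside a 2-fold change. Fatty acid oxidation genes and PPARα targets had 22 of 29 negative, 3 lower at an unadjusted p under 0.05 and a median of -0.17. Cpt2, the inner-membrane enzyme of the carnitine shuttle, had 105, 135, 106, 68.5 and 80.3 CPM in Control 14d and 123, 210, 125, 91.5 and 230 CPM in Control 7d (log2 change -0.39 ± 0.11, edgeR adjusted p = 0.175). The change of Cpt2 at 1 mg/kg was 0.36 ± 0.11, and the vehicle change differed from it (edgeR adjusted p = 0.00941). At 5 and 15 mg/kg the changes of Cpt2 were 0.079 and -0.022, and the vehicle change was not past the edgeR test against either of them or against the mean treated change (adjusted p = 0.232, 0.720 and 0.0592). Within groups Cpt2 had a correlation of 0.93 with the library score, over 60 libraries that also enter the score, and the score's part in the result was not tested. Acot1, a cytosolic acyl-CoA thioesterase and PPARα target, had a log2 change of -0.93 ± 0.69 in vehicle livers and rose by 3.88 ± 0.40 at 1 mg/kg. Ehhadh, the peroxisomal bifunctional enzyme, had -0.26 ± 0.19 in vehicle livers and rose by 0.97 ± 0.19 at 1 mg/kg. Both differed from the vehicle change in the edgeR test (adjusted p = 0.00111 for Acot1 and 0.00961 for Ehhadh). At 5 and 15 mg/kg the log2 changes were 0.028 and 0.097 for Acot1 and 0.14 and -0.072 for Ehhadh. Against the mean treated change neither gene passed the edgeR test (adjusted p = 0.144 for Acot1 and 0.197 for Ehhadh). The vehicle value of Acot1 was -1.68 without library 1 of Control 14d and -0.15 without library 1 of Control 7d. Asns, asparagine synthetase, had 0.668, 2.45, 1.28, 0.855 and 1.11 CPM in Control 14d and 1.87, 3.75, 2.40, 2.36 and 3.90 CPM in Control 7d (log2 change -1.06 ± 0.49, edgeR adjusted p = 0.490). Fgf21, a hormone of the fasted liver, had -1.07 ± 1.11 in vehicle livers and rose by 2.51 ± 0.46 over the treated groups (edgeR adjusted p = 0.00142). By dose Fgf21 changed by 3.13, 3.32 and 1.09 at 1, 5 and 15 mg/kg, and the last was not called. Its vehicle change was not past the edgeR test against the mean treated change (adjusted p = 0.168). Nor was it past that test against 1, 5 or 15 mg/kg (adjusted p = 0.0861, 0.208 and 0.850). Amino acid catabolism and urea cycle genes were negative in 28 of 31, with 4 lower at an unadjusted p under 0.05 and a median of -0.19. Fasn, the fatty acid synthase, had a log2 change of 0.17 ± 0.45. The clock genes Dbp (-0.14 ± 0.44) and Nr1d1 (0.66 ± 0.80) and the mitochondrial Mt-nd1 (0.12 ± 0.35) had intervals on both sides of 0.

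Over the same week the treated groups, with 15 livers a day, had 595 called genes (4.89%), 334 of them lower (2.75%) and the others higher (2.15%). Taken alone, 1 mg/kg gave 960 (7.89%), 5 mg/kg 160 (1.32%) and 15 mg/kg none, with 663 genes there at an unadjusted edgeR p under 0.05. With the score left out 9 were called. The vehicle estimate was positive for 88 of the genes that rose in treated livers (33.7%) and negative for 183 of the 334 that fell (54.8%). Over all 12167 genes the signs matched for 45.9%, and Pearson's r across genes was 0.05. These are descriptions, since genes are not independent and both contrasts use the same score and spread estimate. The median vehicle log2 change was -0.07 over the genes that rose and -0.02 over those that fell.

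The difference itself was called for 5 genes (0.0411%), all with a lower change in vehicle than in treated livers and each with an edgeR adjusted p of 0.0457. They were Btbd19 (-1.09 ± 0.22), the mitochondrial ribosome subunits Mrps10 (-1.09 ± 0.23) and Mrps18a (-0.49 ± 0.11), Mtfp1, which acts in mitochondrial fission (-0.60 ± 0.13), and RGD1559786 (-0.61 ± 0.13). Mrps10 had 13.1, 7.54, 25.3, 16.95 and 14.5 CPM in Control 14d and 18.2, 12.3, 35.6, 33.9 and 9.73 CPM in Control 7d, which overlap widely. All 5 ran against the library score within groups, with correlations of -0.69 to -0.97, and none was called without it. By dose, 588 genes (4.83%) differed between the vehicle change and that at 1 mg/kg, 1 gene, Fchsd2 (0.00822%, named after its value was seen), at 5 mg/kg and none at 15 mg/kg, where edgeR gave 750 genes at an unadjusted p under 0.05. Without the score the 588 became 18. The mean score was 0.47 on day 14 and 0.05 on day 7 at 1 mg/kg, while it was -0.61 on day 14 and -0.07 on day 7 in vehicle livers.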

How the data were processed

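Messenger RNA of 60 rat livers in 12 groups was sequenced. The deposited table holds raw read counts per gene, which the authors made with Trimmomatic 0.33, STAR 2.5.2b and featureCounts of Subread 1.6.0 on the build Rnor_6.0, per the submitters' processing notes. The strand setting of the counting and the annotation release are not given in the sources used here. Genes with low counts were removed (edgeR filterByExpr, minimum count 10, minimum total 15), which left 12167 of 32883 genes. All 60 libraries entered 1 group-means model in edgeR 4.0.16 (R 4.3.3; TMM, robust quasi-likelihood F test, Benjamini-Hochberg adjustment over all tested genes), with the library score as covariate and 47 residual degrees of freedom. The score is the mean standardised, sign-oriented log2 CPM of 500 genes, those with the heaviest loadings on the leading component of deviations from the group means. Because the same expression data define it, a covariate of this kind narrows the spread and can shift estimates of genes on the axis. The script was tested on simulated counts.

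Each sample is described as a separate animal and was used as 1 replicate. Groups were taken from the sample labels. No 2 libraries of a vehicle group agreed within sampling noise (lowest chi-square per degree of freedom 21.4 in Control 14d and 21.8 in Control 7d). Summed marker levels, the score and shares of reads were compared by exact two-sided permutation tests over 252 splits. Named genes were called genes of at least 1 CPM whose groups did not overlap, the member with the smallest p of a gene list, the 5 called differences between vehicle and treated changes and a set of fixed genes. Of the fixed genes, Fos failed the filter and 1 other is not reported here. Genes outside that rule are identified as chosen after their values were seen, and so were Ptprb, Fcgr2b, Bub1, Bub1b, Nusap1, Tk1, Top2a, Ccnd1, Slc4a1, Hbb, Lyve1 and Fgf21. The members and gene lists were chosen with earlier results of these data known. Alternatives were other scores or none, other scaling, no filter, DESeq2 1.42.0, limma 3.58.1 (voom), fewer libraries and leaving out each library.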

Additional observations from a re-analysis of the deposited data

Results flagged for a closer look

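In 102 groups of 5 libraries tested for a single extreme library, 8 stood apart by Dixon's test at 95%, where chance gives about 1 in 20 groups. In Control 7d, library 1 had 29.06 CPM of Alas2 (next 9.303) and 19.37 CPM of Alox15 (next 3.845). In Control 14d, library 2 had the highest Cd163 (30.26 CPM, next 20.59), Ptprb (23.85 CPM, next 10.68) and Slc4a1 (4.242 CPM, next 2.49) and the lowest Rup2 (4862 CPM, next 7987). Library 4 of Control 14d had the highest Fgf21 (1.994 CPM, next 0.768) and the lowest Igf1 (403.4 CPM, next 579). Library 2 also had the highest library score of Control 14d (0.66) and library 4 the lowest (-1.47), and the part of the score in these values was not tested.

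The change over the week differed between vehicle and PFOA livers for 5 genes, by the edgeR test of that difference. Vehicle minus treated log2 change was -0.60 for Mtfp1, -0.61 for RGD1559786, -0.49 for Mrps18a, -1.09 for Mrps10 and -1.09 for Btbd19.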

How the results depend on the processing

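The 3 calls of the vehicle comparison depend on the covariate and the tool. No gene was called without the score (508 at an unadjusted p under 0.05), without the filter on low counts (1389) or with limma-voom (1060). DESeq2's Wald test called 22, of which 2 were among the 3, and gave no adjusted p for Alox15. The count was 25 with the 10 libraries alone and the score (1 shared) and 0 with them and no score (441 at an unadjusted p under 0.05). It was 12 with the 15 vehicle libraries (1 shared) and 5 without the 3 libraries of score below -1.5, none of them vehicle. With the 10 libraries and the score, Lrat, Cyp17a1, Adgrg2, Clec4g, LOC259244 and AABR07048474.1 were called (edgeR adjusted p between 0.025 and 0.0444). Of the 3 calls only Rreb1 was called there, and Alox15 and Nuak1 were not. Clec4g was also called by DESeq2 (Wald test adjusted p = 0.017) and with the 15 vehicle libraries (edgeR adjusted p = 0.047). DESeq2 called Cyp17a1 and Ptprb as well (Wald test adjusted p = 0.048 each), and Btbd19, Mtfp1 and Mrps10 (adjusted p = 0.00882, 0.0334 and 0.0459). The 15 vehicle libraries also gave LOC259244 and AABR07048474.1 (edgeR adjusted p = 0.0469 and 0.0245). Leaving out 1 vehicle library gave 0 to 8 calls, 0 without library 1, 2 or 5 of Control 14d or library 1 or 2 of Control 7d, and 8 without library 5 of Control 7d.

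The treated count of 595 became 9 without the score, about 2.5e+02 without the filter (101 higher and 147 lower), 109 at a fold of at least 1.5, and 960, 160 and 0 at 1, 5 and 15 mg/kg alone (663 at an unadjusted p under 0.05 at 15 mg/kg). The 5 differences between vehicle and treated changes became 0 without the score (898 at an unadjusted p under 0.05), with a principal component score (1784), with a ribosomal protein score (1731), without the filter (1987) and with limma-voom (1683). They became 103 with DESeq2, 8 without the low-score libraries and 588 against 1 mg/kg, and 0 to 46 with 1 vehicle library left out. They were 46 without library 5 and 11 without library 1 of Control 7d. The mitochondrial share difference ran from -0.199 to 0.698 percentage points with 1 library left out.

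Of 661 values of 48 genes under the alternatives, 652 kept their direction. Without the score, Cd163 was -0.089, Dbp 0.030, Fasn -0.24 and Mt-nd1 -0.072. With 1 library left out, Igf1 ran from -0.021 to 0.12, Nr1d1 from -0.23 to 0.98 and Mt-nd1 from -0.063 to 0.33. The causes were not tested. No paired analysis was run, since each sample is described as a separate animal. Low counts limit Alox15, Adgrg2 and the cell cycle genes.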
